A study of Mus musculus with 20 samples.

Results

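The genes described here build and run the mitotic spindle: cyclins and CDK1, mitotic kinases, kinetochore and checkpoint proteins, partners of the anaphase-promoting complex, kinesins, spindle-binding proteins, cytokinesis factors and chromosome proteins. They were taken from a list of 42 genes as the probe sets annotated to the listed gene alone, with the probe set of highest mean over all 20 arrays standing for the gene. Of the 42, 41 were found among 18194 genes tested, and Ccnb1 (cyclin B1) was not analysed here. The cells were red cell progenitors called CFU-E (colony-forming unit erythroid), taken from livers of E13.5 BALB/c mouse embryos, enriched by removing cells that carried surface markers of other lineages or of later red cells. The treated cells received erythropoietin (Epo), the hormone on which this stage depends, at 0.5 U/ml and were collected hourly from 0 to 8 h and at 14, 19 and 24 h (12 arrays). The cells without Epo were collected hourly from 0 to 7 h (8 arrays). Each treatment and time had 1 array, and no label says whether each hour had its own culture, so p-values reflect the scatter of arrays at successive hours, which may be technical. The labels describe the handling before stimulation in different ways, once as a short starvation after sorting and once as a culture in serum with Epo, so what the cells without Epo had seen before 0 h is not settled.

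Mitotic genes are read in waves of the cell cycle. Repressor complexes hold them low in resting and early-cycle cells, and activating complexes that contain MYBL2 or FOXM1 switch them on in late S phase and G2. CDK1 with its cyclins drives entry into mitosis, Aurora and Polo-like kinases assemble the spindle, the checkpoint waits until each kinetochore has bound microtubules, and the anaphase-promoting complex then releases the chromosomes. CFU-E cells divide several times while they mature to red cells, and the transcript level of these genes in a population reflects both the share of cells in G2 and M phase and the RNA per cell. In RNA from whole cultures, fewer cells of a type and less RNA per cell cannot be told apart.

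All levels are given on the deposited log2 scale, on which a difference of 1 is 2-fold, and levels of different genes were not compared because probe sets differ in brightness. The number of arrays limits the precision. Erythroid markers were well detected: the median level of 11 such markers lay between 9.70 and 10.46 over the Epo arrays of 1 to 7 h, and between 10.12 and 11.37 without Epo. Hepatocyte markers were present as well, with a median level over 11 genes of 8.23 to 10.16 with Epo and 7.16 to 8.94 without at those hours. The medians of granulocyte, macrophage and megakaryocyte markers stayed between 2.91 and 4.98 in both series at those hours. Single granulocyte markers lay higher. The highest of 13 stood at 9.30 at 1 h and 6.54 at 7 h without Epo, against 6.71 and 6.18 with Epo. Of these 13 markers, 6 fell with time without Epo and 2 with it, beside 15.4% and 5.74% of all genes. Of the hepatocyte markers, 9 of 11 were called higher with Epo at 1 to 7 h, beside 18.2% of all genes. Their median had been higher already at 0 h, at 11.01 in the series with Epo against 9.61 without. Measured from each series' own 0 h array, 9 of 11 had a negative difference (median -0.40), none past the test. All 11 markers declined with time both with Epo (median slope -0.29 per hour) and without (-0.28 per hour). Of the erythroid markers, 5 of 11 were called lower with Epo at 1 to 7 h and none higher, beside 20.2% and 18.2% of all genes. The part of these cell types in the results was not tested.

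**Figure D1:**
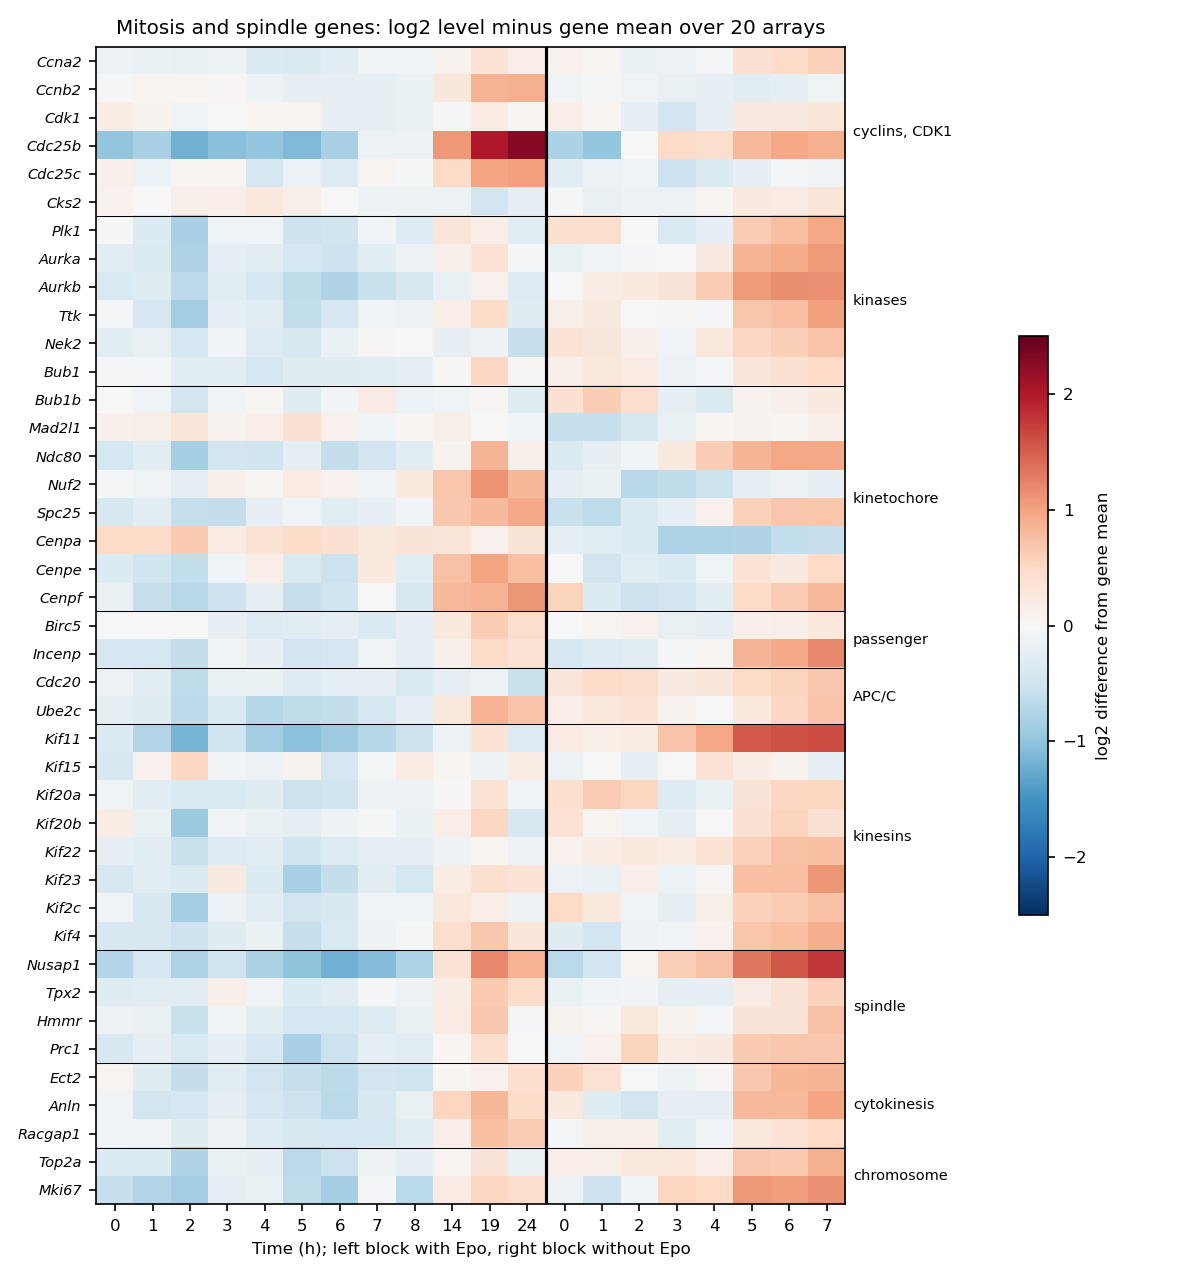
Log2 level of each of the 41 genes (rows, grouped by role) on each array (columns, with Epo on the left, without Epo on the right, hours along the axis), shown as the difference from the gene's mean over 20 arrays. The Epo arrays are mostly blue (low) at 0 to 8 h and mostly red (high) at 14 to 24 h, and the arrays without Epo are mostly red from 5 h on.

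Most of the mitosis genes were lower with Epo than without it at 1 to 7 h, the hours at which both series had an array. Of 41 genes, 30 were lower, 2 were higher and 9 did not pass the test (limma with hour as a block, adjusted over all 18194 genes by the Benjamini-Hochberg method, p under 0.05). Over all genes tested, 20.2% were called lower and 18.2% higher. The median log2 difference, Epo minus no Epo, was -0.61 over the 41 genes and 0.03 over all genes. In 12 of the genes all 7 Epo arrays lay below all 7 arrays without Epo, as did 7.31% of all genes. All 7 Epo arrays lay above in 1 gene, Cenpa (6.56% of all genes).

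Each of the 6 mitotic kinases was lower with Epo. Aurkb, the catalytic subunit of the chromosomal passenger complex, had a lowest, median and highest level of 8.81, 9.0 and 9.29 over the 7 Epo arrays, against 9.73, 10.19 and 10.70 over the 7 arrays without Epo. The ranges did not overlap, and the difference was -1.19 ± 0.17 (SE, 7 matched hours; limma adjusted p = 0.00022). Aurka, which matures centrosomes and spindle poles, had 9.79, 10.17 and 10.32 with Epo, against 10.45, 10.75 and 11.61 without, again with no overlap (-0.83 ± 0.15, limma adjusted p = 0.0013). For Plk1, the Polo-like kinase of mitotic entry, the levels were 8.40, 8.86 and 9.14 with Epo, against 8.82, 9.64 and 10.17 without. Its ranges overlapped at 3 and 4 h, where the arrays without Epo dipped and the difference was 0.29 and 0.09 (over all hours -0.67 ± 0.18, limma adjusted p = 0.013). Ttk, the kinase that starts the spindle checkpoint, differed by -0.80, Nek2, which parts the centrosomes, by -0.57, and the checkpoint kinase Bub1 by -0.48.

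Of the cyclins, CDK1 and its activators, 2 of 6 were lower with Epo and 4 did not pass. Cdc25b, a phosphatase that activates CDK1, had 6.62, 6.86 and 7.67 with Epo, against 6.86, 8.31 and 8.80 without. The only overlap came from the 1 h array without Epo, and the difference was -1.25 ± 0.21 (limma adjusted p = 0.00056). Ccna2 (cyclin A2, of S and G2 phase) had 11.24, 11.42 and 11.51 with Epo, against 11.43, 11.67 and 12.17 without (-0.38 ± 0.11, limma adjusted p = 0.013). Cdk1 itself had 10.31, 10.55 and 10.63 with Epo, against 10.07, 10.58 and 10.84 without, and its mean difference of -0.03 ± 0.12 did not pass (limma adjusted p = 0.85). Its hourly differences ran from 0.48 at 3 h to -0.53 at 7 h, so the mean joins hours of opposite sign. The cyclin B2 gene Ccnb2 had 10.52, 10.62 and 10.82 with Epo, against 10.46, 10.56 and 10.72 without, and its ranges overlapped almost fully (0.07 ± 0.07, limma adjusted p = 0.41). Cdc25c, the other CDK1 phosphatase, differed by 0.09 ± 0.11, and the CDK-binding subunit Cks2 by 0.04 ± 0.09.

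Kinetochore and checkpoint genes were mixed, with 3 of 8 lower, 2 higher and 3 not past the test. The subunits of the NDC80 complex, the part of the kinetochore that grips microtubules, did not go one way. Ndc80 differed by -0.96 ± 0.16 and Spc25 by -0.45 ± 0.14, while Nuf2 was higher with Epo by 0.39 ± 0.10 (limma adjusted p = 0.00061, 0.025 and 0.0083 in that order). The remaining subunit gene, Spc24, which is not one of the 41, differed by -0.28 and did not pass (limma adjusted p = 0.081). Nuf2 had 8.94, 9.20 and 9.36 with Epo, against 8.46, 8.91 and 9.0 without, and was the higher in all 7 hours with a small overlap of the ranges. Cenpa, the histone H3 variant that marks centromeres, had 11.14, 11.31 and 11.58 with Epo, against 10.16, 10.31 and 10.64 without. The lowest Epo array thus lay above the highest array without Epo, and the difference was 0.99 ± 0.07 (limma adjusted p = 2.2e-06). It was already 0.71 at 0 h, and a second, dimmer Cenpa probe set, whose name ends in plain _at, differed by -0.16 (limma adjusted p = 0.51). Cenpf, a kinetochore protein of G2 and M phase, was lower with Epo (-0.49 ± 0.16, limma adjusted p = 0.028). The checkpoint inhibitor gene Mad2l1 had 11.74, 11.98 and 12.22 with Epo, against 11.27, 11.89 and 11.97 without (0.27 ± 0.11, limma adjusted p = 0.061), the checkpoint gene Bub1b differed by -0.24 and the kinetochore motor gene Cenpe by -0.23, none past the test.

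Both partners of the anaphase-promoting complex were lower with Epo, as were both other passenger subunits. Cdc20, which activates that complex and is the target of the checkpoint, had 10.61, 11.02 and 11.07 with Epo, against 11.48, 11.73 and 11.92 without. No Epo array reached the level of any array without Epo, and the difference was -0.74 ± 0.08 (limma adjusted p = 3.6e-05). Ube2c, its ubiquitin-conjugating enzyme, differed by -0.84 ± 0.09 with ranges that did not overlap either. Incenp, the scaffold of the passenger complex, differed by -0.68 ± 0.18 and Birc5 (survivin), which brings it to centromeres, by -0.24 ± 0.08.

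Among the kinesins, 7 of 8 were lower with Epo. Kif11, the motor that pushes the spindle poles apart, had 6.88, 7.16 and 7.53 with Epo, against 8.18, 8.99 and 9.67 without. The ranges lay well apart, and the difference of -1.81 ± 0.20 was the most negative of the 41 genes (limma adjusted p = 4.1e-05). Kif22, which moves chromosome arms, differed by -0.79 ± 0.09, Kif23 (central spindle) by -0.69 ± 0.22, the microtubule depolymerase Kif2c by -0.66 ± 0.13, Kif20a (cytokinesis) by -0.65 ± 0.14, the chromokinesin Kif4 by -0.61 ± 0.17 and Kif20b by -0.39 ± 0.12. Kif15, which helps keep the poles apart, differed by -0.03 ± 0.13. Its probe set gave 3.83 to 4.77 on the 20 arrays, below the median of 4.91 over all genes' mean levels, as was the case for no other member.

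Spindle-binding, cytokinesis and chromosome genes were lower with Epo in 8 of 9 cases, the exception being Tpx2, the activator of Aurora A (-0.23 ± 0.13, limma adjusted p = 0.18). Nusap1, which bundles microtubules near chromosomes, had 8.64, 9.04 and 9.42 with Epo, against 9.36, 10.57 and 11.62 without. Only the 1 h array without Epo fell within the Epo range (-1.62 ± 0.31, limma adjusted p = 0.0014). Mki67, the proliferation marker that coats mitotic chromosomes, had 9.57, 9.80 and 10.38 with Epo, against 9.92, 10.97 and 11.57 without, and was the lower with Epo in all 7 hours (-1.03 ± 0.17, limma adjusted p = 0.00064). Top2a, the topoisomerase that untangles sister chromatids, had 9.71, 10.12 and 10.35 with Epo, against 10.61, 10.73 and 11.36 without, with no overlap (-0.84 ± 0.12, limma adjusted p = 0.00025). The others were Prc1, which crosslinks the central spindle (-0.85 ± 0.14), Ect2, the RhoA activator of the cleavage furrow (-0.85 ± 0.16), the contractile ring scaffold Anln (-0.65 ± 0.21), Hmmr, a spindle pole protein (-0.57 ± 0.13) and Racgap1, the partner of Kif23 (-0.46 ± 0.13). The calls for Birc5, Spc25, Cenpf, Kif20b, Kif23 and Anln did not pass when 1 of the hours was left out, at adjusted p between 0.052 and 0.10. Of the 41 genes, 27 had further probe sets on the array, and 38 of 50 such probe sets differed in the same direction as the one used. Their size could be unlike. A Cenpe, a Ccna2 and a Tpx2 probe set gave -1.38, -0.78 and -0.47, against -0.23, -0.38 and -0.23 for those used. Others gave smaller values, such as that of Nusap1 (-0.43, against -1.62). By the rule of choice, all 50 were dimmer than the one used. The other 12 differed the opposite way. Beside that of Cenpa, they were probe sets of Incenp, Hmmr, Ttk, Kif2c, Bub1b and Top2a (by 1.19, 1.02, 0.78, 0.42, 0.29 and 0.26), and of Racgap1, Spc25, Kif20b, Cdc25c and Kif23 (by less than 0.15 either way).

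**Figure D2:**
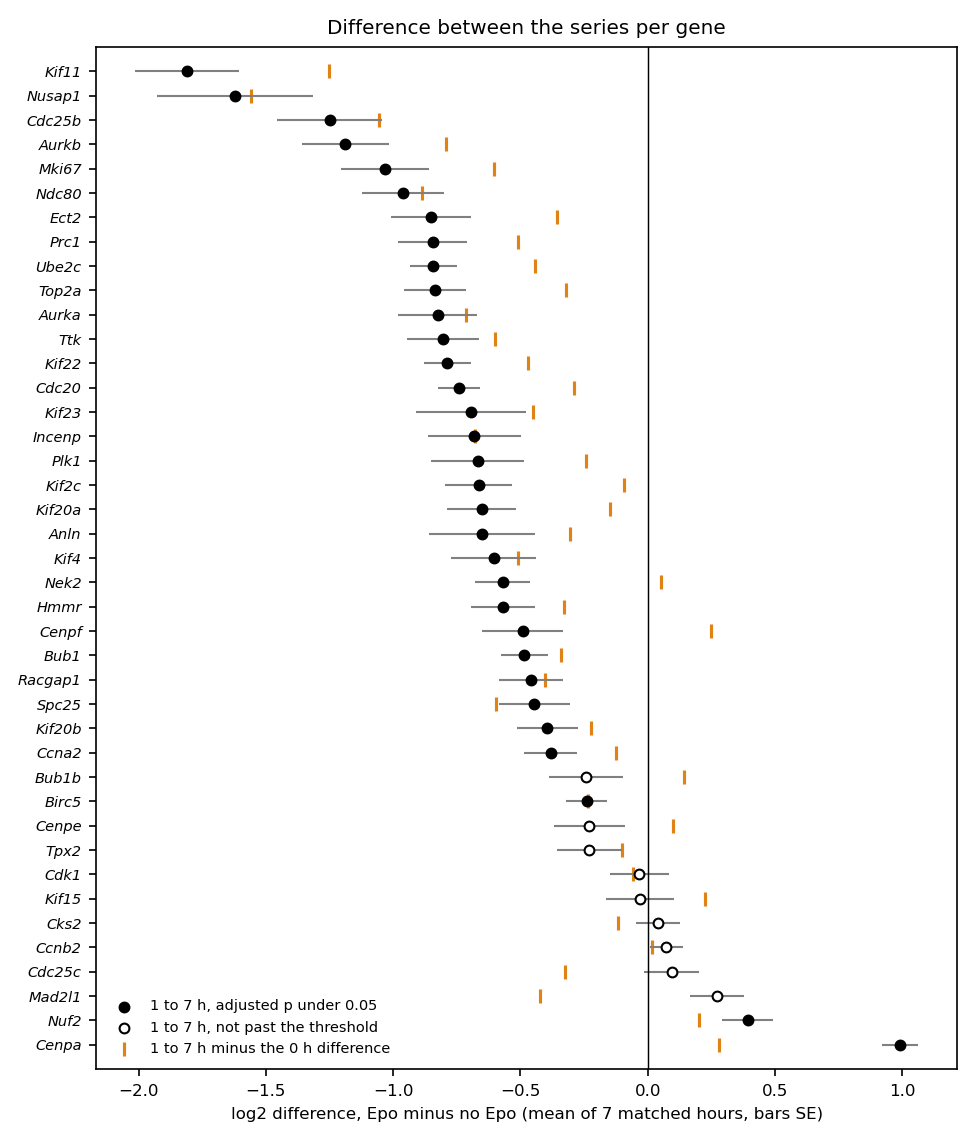
Log2 difference, Epo minus no Epo, for each of the 41 genes: points are means of 7 matched hours with their SE, filled where the limma adjusted p was under 0.05, and ticks are the same mean after subtracting the 0 h difference. From Kif11 at -1.81 at the top to Cenpa at 0.99 at the bottom, 30 genes are filled on the left of 0 and 2 on the right, and most ticks lie nearer to 0 than the points.

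The 2 series differed already on their 0 h arrays, 1 array a side. There 33 of 41 genes were lower in the series with Epo, beside 51.6% of all genes. The median difference of the 41 was -0.24, and none was lower or higher by 2-fold (2.4% of all genes were higher and 0.632% lower by 2-fold at 0 h). Whether this arose before stimulation or from the single arrays was not tested. Measured from each series' own 0 h array, 33 of 41 genes still had a negative difference (median -0.33), but none passed the test, in which the 0 h difference rests on 1 array a side (limma, 0 of 41 at an unadjusted p under 0.05, smallest adjusted p = 0.63). Of all genes, 0.0495% were called lower and 0.0165% higher in that comparison. In it, 48.9% of all genes had a negative difference. The largest values among the 41 were those of Nusap1 (-1.56 ± 0.86), Kif11 (-1.25 ± 0.58), Cdc25b (-1.05 ± 0.58) and Ndc80 (-0.89 ± 0.45), and on the positive side Cenpa (0.28 ± 0.20), Cenpf (0.25 ± 0.45), Kif15 (0.22 ± 0.38) and Nuf2 (0.20 ± 0.28). When a linear drift of the differences was allowed, 2 genes were called lower (2.39% of all genes): Nusap1 (limma adjusted p = 0.0017) and Kif11 (limma adjusted p = 0.022).

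The difference between the series shifted over the hours towards lower with Epo for 17 of the 41 genes and towards higher for none, judged by a line fitted to the 7 matched differences. Over all genes, 7.97% had a negative and 7.26% a positive slope past the test. Nusap1 had the steepest slope, -0.50 ± 0.04 log2 per hour (limma adjusted p = 4.3e-06): its difference was 0.06 at 1 h, -1.53 at 4 h and -2.86 at 7 h. Kif11 and Anln followed with -0.29 per hour each and Kif23 with -0.26. The 2 genes with positive slopes, neither past the test, were Bub1b (0.10 ± 0.06, limma adjusted p = 0.30) and Cenpa (0.02 ± 0.03, limma adjusted p = 0.82).

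Seen hour by hour, the genes did not part evenly. The median difference of the 41 genes was -0.22, -0.56, -0.05 and -0.26 at 1, 2, 3 and 4 h, and -0.91, -1.03 and -0.90 at 5, 6 and 7 h. Lower by 2-fold or more with Epo were 0, 4, 3 and 5 genes at 1 to 4 h, then 19, 21 and 17 at 5 to 7 h, against 0.737%, 3.74%, 3.25%, 4.8%, 8.61%, 7.18% and 6.14% of all genes at those hours. Fitted on 1 to 4 h alone, 14 genes were called lower (13.0% of all genes) and 4 higher (10.4%). With a step after 4 h in place of a slope, both chosen after the data were seen, 21 genes were called lower (4.38% of all genes). Cdk1 and Cks2 were among the genes whose difference changed with time (-0.12 and -0.11 per hour) while their means over the hours lay near 0. The 17 calls fell to 11 without the arrays of 6 h.

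**Figure D3:**
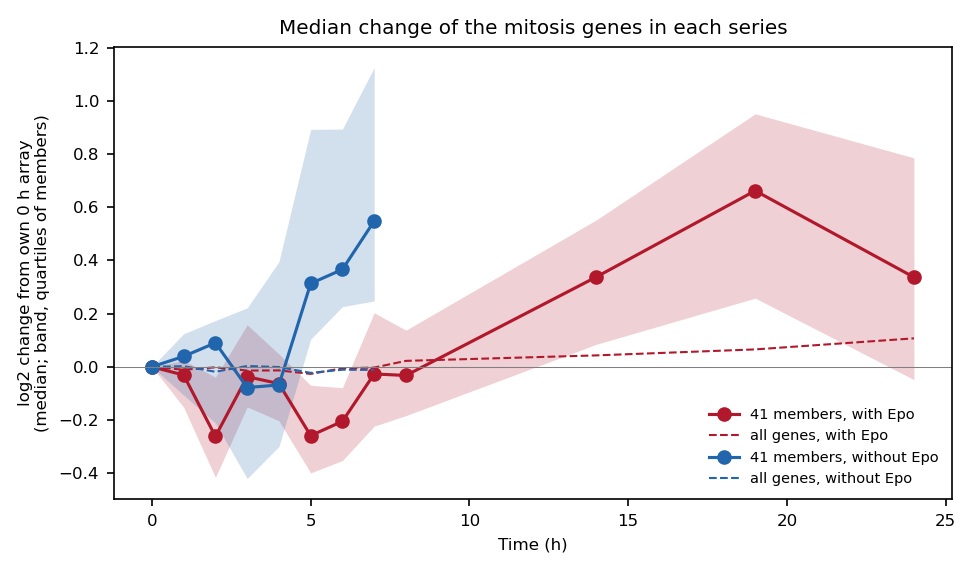
Median log2 change of the 41 genes from the 0 h array of the same series (points; bands run between the lower and upper quartile of the genes; dashed lines, all genes) against time in hours, with Epo in red and without in blue. With Epo the median stays between -0.26 and -0.03 at 1 to 8 h and reaches 0.66 at 19 h, and without Epo it reaches 0.31 at 5 h and 0.55 at 7 h.

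Each series was also followed on its own. With Epo the mitosis genes were nearly flat over the first 8 h. None of the 41 passed the test for a slope over the 9 Epo arrays of 0 to 8 h (limma, 2 upward and 6 downward at an unadjusted p under 0.05; smallest adjusted p = 0.072), and over all genes 2.34% rose and 5.74% fell. The median slope was -0.00 per hour. Cdc25b had the most positive slope, 0.10 ± 0.03 per hour, with levels of 6.62 to 7.68 and the 2 highest at 7 and 8 h. The next were Spc25 (0.05), Cenpe (0.04) and Kif4 (0.04), and the most negative were Nusap1 (-0.06 ± 0.02), Ect2 (-0.06), Cdk1 (-0.04) and Racgap1 (-0.04). The Epo array of 2 h was low for the whole group, with 33 of 41 genes under their 0 h level (median -0.26).

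Without Epo, 21 of the 41 genes rose over 0 to 7 h and none fell past the test, against 13.3% of all genes that rose and 15.4% that fell. The median slope was 0.09 log2 per hour, and -0.00 over all genes. Nusap1 rose by 0.37 ± 0.02 per hour (limma adjusted p = 5.1e-06), through levels of 9.17 at 0 h, 10.44 at 3 h and 11.62 at 7 h. Cdc25b rose by 0.28 ± 0.04 per hour (limma adjusted p = 0.00024), from 7.04 at 0 h over 8.31 at 3 h to 8.70 at 7 h. Both had climbed before 5 h. Kif11 (0.26 ± 0.03) and Incenp (0.25 ± 0.03) came next, with Kif11 at 8.24 at 0 h, 8.99 at 4 h and 9.67 at 7 h, and Incenp at 9.95, 10.43 and 11.57 at those hours. Other genes that rose were Mki67 (0.24), Spc25 and Ndc80 (0.22 each), Aurka and Kif4 (0.20 each) and Aurkb (0.18). The most negative slopes, none past the test, were those of Cenpa (-0.06 ± 0.02, limma adjusted p = 0.068), Bub1b (-0.06), Ccnb2 (-0.02) and Kif20a (-0.00).

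Much of the rise fell between the arrays of 4 and 5 h. Between them 11 of 41 genes went up with Epo (median step -0.14) and 39 of 41 without (median step 0.43). Without Epo, 13 went up by at least 0.5, as did 3.41% of all genes. A rise of the group between 2 neighbouring arrays was seen with Epo too, from 2 to 3 h. There 33 of 41 genes went up (median step 0.26), 10 of them by at least 0.5, as did 4.94% of all genes. In 32 of 41 genes the 3 arrays without Epo of 5 to 7 h all lay above the 5 arrays of 0 to 4 h, as in 13.3% of all genes, a split chosen after the data were seen. Several genes had dipped before: Plk1 stood at 9.60, 9.64, 9.23, 8.82 and 9.01 at 0 to 4 h without Epo, then at 9.85, 9.97 and 10.17 at 5 to 7 h. Cdk1 likewise went down to 10.07 at 3 h after 10.69 at 0 h and stood at 10.84 at 7 h. For these genes a straight line describes the course poorly: neither passed the slope test (limma adjusted p = 0.25 and 0.43), whereas with a step after 4 h Plk1 was among the 24 genes called higher (8.35% of all genes). The step falls between 2 neighbouring arrays, each the only one of its hour.

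**Figure D4:**
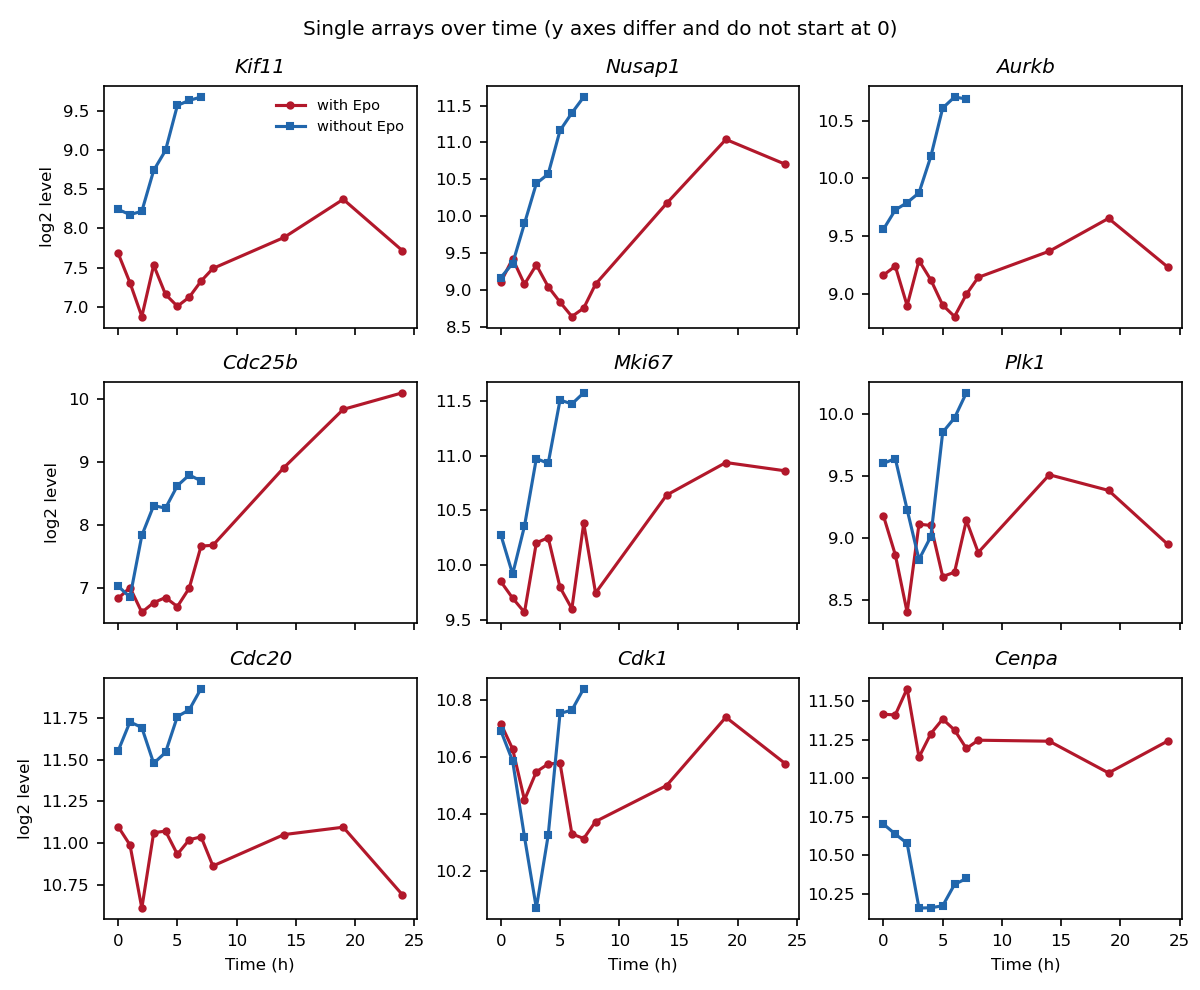
Log2 level on each single array against time in hours for 9 of the genes, with Epo (red circles, 0 to 24 h) and without (blue squares, 0 to 7 h); the vertical axes differ between panels and do not start at 0. Nusap1, Kif11, Aurkb, Cdc25b and Mki67 climb without Epo, Plk1 and Cdk1 dip at 3 h first, Cdc20 stays apart throughout, and Cenpa is the one that lies higher with Epo.

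With Epo, the genes rose late. Set against the 8 Epo arrays of 1 to 8 h, the mean of 14, 19 and 24 h was higher for 30 of 41 genes and lower for 1 (limma adjusted p under 0.05). In the whole table, 17.6% of genes were higher and 18.5% lower. The median difference was 0.58, and 0.08 over all genes. In 26 genes all 3 late arrays lay above all 8 earlier ones, as did 11.8% of all genes. There are no arrays without Epo at these hours, so time and Epo cannot be told apart here.

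Cdc25b had the largest late rise: 8.91, 9.83 and 10.10 at 14, 19 and 24 h, against a lowest, median and highest of 6.62, 6.93 and 7.68 at 1 to 8 h (2.57 ± 0.27, limma adjusted p = 1.9e-05). It was still climbing at 24 h, unlike most members. Nusap1 stood at 10.17, 11.04 and 10.70, against 8.64, 9.06 and 9.42 (1.62 ± 0.19, limma adjusted p = 3.6e-05). Cenpf stood at 8.16, 8.22 and 8.45, against 6.66, 6.84 and 7.35 (1.36 ± 0.15, limma adjusted p = 2.7e-05), and Ube2c at 11.03, 11.63 and 11.47, against 10.04, 10.25 and 10.52 (1.11 ± 0.14, limma adjusted p = 4.8e-05). In each of these genes the late arrays stood clear of the earlier ones. The cyclin gene Ccnb2, which had not differed between the series past the test, rose late as well: 11.02, 11.61 and 11.63, against 10.52, 10.59 and 10.82 (0.77 ± 0.13, limma adjusted p = 0.00036). Cdc25c likewise rose by 0.94 ± 0.15.

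The gene called lower was Cks2, with 12.48, 12.15 and 12.41 late, against 12.50, 12.70 and 12.88 earlier (-0.34 ± 0.09, limma adjusted p = 0.012). Cenpa (-0.15 ± 0.10), Mad2l1 (-0.12 ± 0.10) and Nek2 (-0.11 ± 0.14) came next and did not pass. Cdc20 stood at 11.05, 11.10 and 10.69 late, against 10.61 to 11.07 earlier, and Cdk1 at 10.50, 10.74 and 10.58, against 10.31, 10.50 and 10.63. Both ranges overlapped (-0.00 ± 0.12 for Cdc20 and 0.13 ± 0.10 for Cdk1, limma adjusted p = 0.99 and 0.33). Plk1 stood at 9.51, 9.38 and 8.95, against 8.40, 8.87 and 9.14 (0.42 ± 0.17, limma adjusted p = 0.065). The remaining kinases with values by array were Aurka at 10.66, 10.90 and 10.49, against 9.79, 10.21 and 10.40 (0.51 ± 0.13), and Aurkb at 9.37, 9.66 and 9.23, against 8.81, 9.06 and 9.29 (0.37 ± 0.13, limma adjusted p = 0.044). Mki67 (0.91 ± 0.17), Top2a (0.45 ± 0.15) and Ccna2 (0.40 ± 0.09) rose too. The late calls of 10 genes did not pass when 1 of the hours was left out. These were Aurka, Aurkb, Bub1, Cks2, Hmmr, Kif20a, Kif22, Kif2c, Prc1 and Top2a. Without 19 h, Aurkb had a limma adjusted p = 0.22 and Top2a a limma adjusted p = 0.16.

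The late level was highest at 19 h for 29 of 41 genes, at 24 h for 8 and at 14 h for 4, whereas all genes were spread over 14, 19 and 24 h as 32.4%, 28.2% and 39.4%. From 19 to 24 h, 9 of 41 genes went up, and the median step was -0.24. Without the 19 h array, 21 genes were called higher and none lower. Set against the Epo arrays of 6 to 8 h alone, 19 were higher and none lower (5.74% and 10.2% of all genes). The hepatocyte markers were lower at the late hours in 9 of 11 genes, with a median level of 4.95 to 6.64, and the erythroid markers were higher in 8 of 11, with a median level of 10.61 to 11.04.

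Of the 21 genes that had risen by 7 h without Epo, 18 (85.7%) also rose late with it, beside 30 of all 41 genes. These 18 were 60.0% of the 30, beside 21 of all 41 that rose without Epo. The 2 comparisons share no array. The overlap over all genes was not counted, and nothing is read from these shares. Those that rose without Epo only by these calls were Cks2, Mad2l1 and Ttk, and the difference between the comparisons was not tested. Ttk had a late difference of 0.49 ± 0.18 (limma adjusted p = 0.050). The height reached was not the same in all. Kif11 reached at most 8.37 late with Epo, against 9.67 at 7 h without, and Aurkb at most 9.66, against 10.69, while Cdc25b reached 10.10 late with Epo, against 8.70 at 7 h without.

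**Figure D5:**
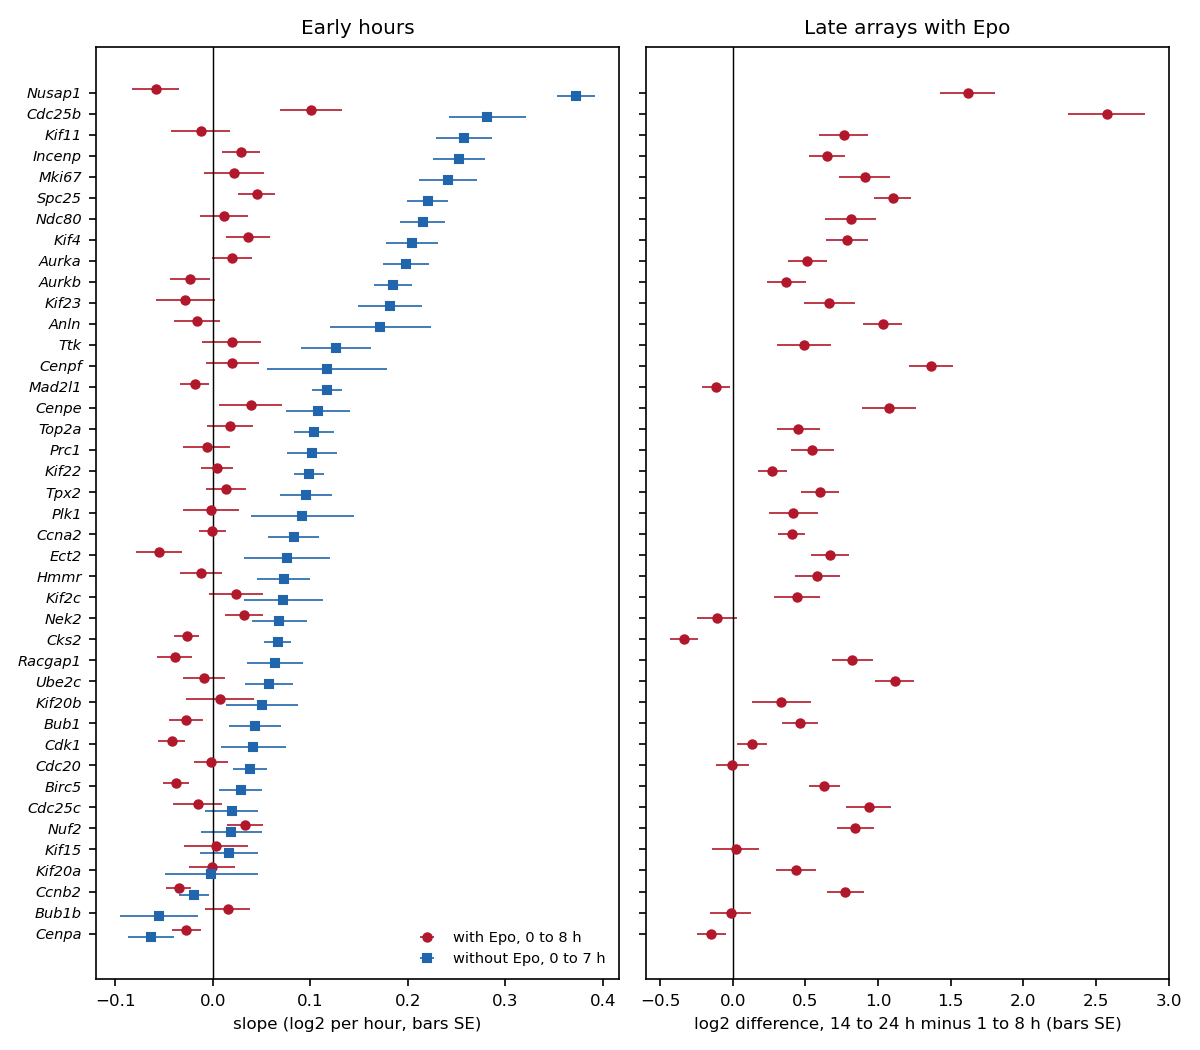
Left, slope in log2 per hour with SE for each of the 41 genes over 0 to 8 h with Epo (red circles) and 0 to 7 h without (blue squares); right, log2 difference with SE between the late Epo arrays (14 to 24 h) and those of 1 to 8 h. Red slopes cluster at 0, blue ones spread up to 0.37 (Nusap1), and on the right Cdc25b stands out at 2.57 and Cks2 lies at -0.34.

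Because the genes moved together, the stretch upstream of their transcription starts was searched for the elements that cell cycle complexes are known to use: TTTGAA and TTTAAA, the core of the cell cycle genes homology region, and CCAAT, the site of the NF-Y factor. Promoters from RefSeq (GRCm38.p6) were found for 35 of the 41 genes, and the 250 bases before each start were read on both strands; TTTAAA is its own reverse complement. CCAAT lay in 26 of 35 genes (74.3%), against 37.5% of the 27025 genes of the table, and at least 2 copies in 17 (48.6%), against 11.5%. TTTGAA lay in 12 (34.3%, against 18.3%) and TTTAAA in 5 (14.3%, against 13.7%), and a core together with CCAAT in 13 (37.1%, against 10.1%). The median difference between the series was -0.70 over the 16 genes with a core and -0.57 over the 19 without, given as a description. A match is not a bound site, and its absence says only that these letters are not in the window.

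The 150 bases before the start are shown for the 3 genes with the largest differences between the series and for Cdc20, Plk1 and Cdk1, each 5′ to 3′ on the gene's strand with the matches in capitals. They lie at chr19:37376232-37376381 (+ strand) for Kif11, chr2:119618148-119618297 (+) for Nusap1, chr2:131186798-131186947 (+) for Cdc25b, chr4:118437344-118437493 (- strand) for Cdc20, chr7:122159285-122159434 (+) for Plk1 and chr10:69352913-69353062 (-) for Cdk1.
Kif11: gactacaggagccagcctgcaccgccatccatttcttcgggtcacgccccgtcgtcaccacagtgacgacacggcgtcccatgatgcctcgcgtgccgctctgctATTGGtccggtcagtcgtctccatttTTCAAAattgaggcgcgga
Nusap1: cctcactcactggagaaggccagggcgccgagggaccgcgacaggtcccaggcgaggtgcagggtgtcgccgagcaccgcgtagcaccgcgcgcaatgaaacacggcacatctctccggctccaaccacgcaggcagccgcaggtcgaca
Cdc25b: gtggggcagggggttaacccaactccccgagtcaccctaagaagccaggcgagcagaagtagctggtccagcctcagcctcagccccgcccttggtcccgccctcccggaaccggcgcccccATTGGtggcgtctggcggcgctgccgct
Cdc20: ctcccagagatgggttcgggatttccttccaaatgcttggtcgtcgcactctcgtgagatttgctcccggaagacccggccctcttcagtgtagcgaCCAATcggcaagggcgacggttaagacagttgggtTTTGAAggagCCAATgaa
Plk1: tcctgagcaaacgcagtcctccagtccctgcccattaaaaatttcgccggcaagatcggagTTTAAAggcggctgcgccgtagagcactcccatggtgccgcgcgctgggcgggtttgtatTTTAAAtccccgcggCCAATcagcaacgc
Cdk1: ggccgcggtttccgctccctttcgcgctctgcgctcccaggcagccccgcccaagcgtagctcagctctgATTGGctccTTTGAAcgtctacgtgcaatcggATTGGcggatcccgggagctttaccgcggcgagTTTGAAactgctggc
Kif11 and Cdc20 each carry TTTGAA 19 and 18 bases before the start, in Kif11 read on the other strand, and Plk1 carries TTTAAA 89 and 29 bases before it. Cdk1 has 2 copies of TTTGAA and 2 of CCAAT (both on the other strand), although its difference between the series was -0.03. Nusap1, with a difference of -1.62, holds none of the 3 elements in this window, and Cdc25b holds CCAAT alone.

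Other genes of the same machinery were taken from lists of known components, chosen with earlier results of these data known. They were counted in the same way, beside the 20.2% of all genes called lower and 18.2% called higher at 1 to 7 h. In that comparison, 26 of 36 further spindle, centrosome and cytokinesis genes were lower with Epo and 2 higher, among them the kinesins Kifc1 (-1.46 ± 0.23) and Kif18a (-1.46 ± 0.19). Of 34 further kinetochore and checkpoint genes 17 were lower and 4 higher: Mis12 (-1.82 ± 0.20) and Nsl1 (-1.60 ± 0.22), subunits of the complex that anchors NDC80, were lower, and the centromere gene Cenpi (1.56 ± 0.16) was higher. Of 19 genes of the anaphase-promoting complex and of chromatid separation 12 were lower and 5 higher, with Fbxo5, an inhibitor of that complex, at -1.97 ± 0.32, Sgo2a, which protects cohesin, at -1.41 ± 0.22 and the subunit gene Anapc10 at 1.02 ± 0.08. Of 17 further M phase kinases and regulators 8 were lower and 4 higher, with Mastl, which restrains the phosphatase that opposes CDK1, at -1.39 ± 0.24, and Cdk7, the CDK-activating kinase, and Nek6 at 1.06 each. The shares called higher were 4 of 34 in the kinetochore list and 4 of 17 in the kinase list, which lie below and near the share of all genes, and nothing is read from them.

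Of 18 genes listed with the factors of G2 and M phase promoters 13 were lower with Epo and 2 higher. The repressor gene E2f7, in that list, differed by -1.07 ± 0.24. Of 2 subunits of the MuvB core Lin9 differed by -0.89 ± 0.16 and Lin37 by 0.99 ± 0.15. The activator genes Mybl2 and Foxm1 differed by -0.76 ± 0.14 and -0.63 ± 0.17. Of 29 G1/S and replication genes, which act before mitosis, 18 were lower and 3 higher, with Uhrf1 (maintenance of DNA methylation) at -1.86 ± 0.20, the origin licensing gene Cdc6 at -1.62 ± 0.18 and Gins2 of the replicative helicase at 1.26 ± 0.11. The list medians were -0.52 for the spindle list, -0.52 for the G2/M factors, -0.65 for the G1/S list, -0.44 for the separation list, -0.30 for the kinetochore list and -0.26 for the kinases.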

How the data were processed

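Expression arrays of mouse genes, 20 in all, covered 12 samples with Epo and 8 without. The authors deposited 1 value per probe set on a log2 scale, as its range of 1.37 to 14.6 shows; the sources used here do not say how intensities were summarised and normalized. The platform annotation tied 34958 of 45101 probe sets to 1 gene and 932 to several, and 9211 had no name here. For 18194 genes the probe set of highest mean over the arrays was kept, with no filter on dim genes. All comparisons were fitted over these genes with limma 3.58.1 in R 4.3.3 (empirical Bayes with trend) with calls at p under 0.05 after Benjamini-Hochberg adjustment: the difference at 1 to 7 h with hour as a block, the same minus the 0 h difference, its slope, the slope within each series and late against early Epo arrays. The members, gene lists and tests were chosen with earlier results of these data known, and lists are described by counts without a test of their own. Values by array are given for 9 central genes and, per comparison, for those with the largest changes; others are given by their differences. The fits were tried on simulated data with independent noise for each gene and array. Such data hold no shift shared by the genes of an array, so they cannot show how such shifts affect the calls. Alternatives were other scalings, probe set choices, variance models, hours left out and other early hours; fits to 1 to 4 h or 5 to 7 h, with a step after 4 h, and of 14 and 19 h against 3 to 8 h were added after the data were seen. Tables, the promoter search and plots used Python 3.11.15, pandas 2.3.3 and matplotlib 3.10.9.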

Additional observations from a re-analysis of the deposited data

Results flagged for a closer look

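For 17 of the genes the difference between the series, Epo minus no Epo, changed over 1 to 7 h by a test of the change itself (limma slope of the 7 matched differences, adjusted p under 0.05), all towards lower with Epo. In log2 per hour the change was -0.496 for Nusap1, -0.29 for Kif11, -0.286 for Anln, -0.264 for Kif23, -0.249 for Incenp and -0.241 for Aurkb. It was -0.217 for Ndc80, -0.215 for Mki67, -0.209 for Kif4, -0.201 for Aurka, -0.198 for Spc25 and -0.173 for Ect2. Smaller changes were those of Mad2l1 (-0.148), Ccna2 (-0.126), Cdk1 (-0.124), Cks2 (-0.113) and Birc5 (-0.0898). Of these, Mad2l1, Cdk1 and Cks2 did not differ past the test in the mean over the 7 hours. Of the 17 calls, 11 were made from the hours without 6 h.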

How the results depend on the processing

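No paired analysis was possible because each treatment and time had 1 array with no replicate number; hours were matched instead. Over all single genes and settings, 3955 values kept direction and side of the threshold, 160 no longer passed, 79 passed only then and 10 turned sign. Of the 32 genes called at 1 to 7 h, 26 were called with any hour left out and 20 under every planned setting in which they were tested. For 9 of the mitosis genes there was no probe set with a name ending in plain _at. Any of these among the 20 were not tested in the setting limited to such probe sets. Leaving out 1 hour gave 24 to 30 genes lower and 2 to 3 higher with Epo at 1 to 7 h, 11 to 18 whose difference shifted towards lower with Epo, 16 to 24 that rose and 0 to 1 that fell without Epo, 0 to 1 either way with Epo, and 21 to 32 higher and 0 to 1 lower late. A further setting kept only probe sets whose names end in plain _at, without _a, _s or _x (32 genes left, so fewer were tested). With these, 19 were lower and 1 higher at 1 to 7 h, and 19 higher late. There the difference was 1.02 for Hmmr (adjusted p = 0.00030), 0.26 for Top2a, 0.14 for Spc25 and -0.16 for Cenpa; the Cenpa slope was -0.23 for the difference and 0.24 without Epo (0.058 as a mean of its probe sets), and the late difference was 0.66 for Cenpa and -0.16 for Kif22. From 1 to 4 h only, 14 genes were lower (13.0% of all genes) and 4 higher (10.4%: Cks2, Mad2l1, Nuf2 and Cenpa); from 5 to 7 h only, Cks2 was at -0.23. With a drift from 0 h, 2 genes were lower. Without Epo, Cenpa fell (1 gene) among brighter genes. With Epo, Cdc25b rose (1 gene) after quantile normalization and Nusap1 fell (1 gene) over 0 to 7 h and 1 to 7 h. Against 6 to 8 h, 19 genes were higher late and 0 lower. The causes were not tested.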

Other observations

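At the late hours the neighbouring lists gave different counts. Of 29 G1/S and replication genes 4 were higher and none lower at 14 to 24 h with Epo than at 1 to 8 h (limma adjusted p under 0.05, median difference 0.05), while of 36 further spindle, centrosome and cytokinesis genes 21 were higher and 2 lower (median 0.45), and of 34 kinetochore and checkpoint genes 13 were higher and 2 lower (median 0.28). Over all genes 17.6% were higher and 18.5% lower. Without Epo over 0 to 7 h, 16 of the 29 G1/S genes rose and 3 fell, beside 16 and 5 of the 36 spindle genes and 23 and 3 of the 34 kinetochore genes. No test compared the lists. Among single genes, Fbxo5 rose both without Epo (0.47 per hour, limma adjusted p = 0.00012) and late with Epo (1.05, limma adjusted p = 0.00082), and Arhgef39, which lies in the spindle list, by 1.46 late.

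Some genes had a probe set that moved against the one used. A dimmer Incenp probe set averaged 6.44 with Epo and 5.25 without at 1 to 7 h (difference 1.19), while the probe set used gave -0.68 and 2 others -0.66 and -0.70. A Ttk probe set averaged 5.20 with Epo and 4.42 without (0.78), against -0.80 for the one used. One Hmmr probe set averaged 6.28 with Epo and 5.26 without (1.02), against -0.57 for the one used. The other Hmmr probe sets gave -0.52, -0.40 and -0.58. In all, 12 of 50 further probe sets of the genes had the opposite sign. Which parts of the transcripts these probe sets match was not analysed here.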
